A study of Arabidopsis thaliana with 12 samples.

Results

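The comparison described here sets Arabidopsis thaliana seedlings given the auxin indole-3-acetic acid (IAA) for 3 h against seedlings given the solvent alone for 3 h. It uses 6 of the 12 arrays of a time course, chosen by their titles: 3 IAA arrays and 3 mock arrays, numbered 1 to 3 in each group and compared number by number. All seedlings were wildtype of the ecotype Col-0 and, per the labels, 7 days old, while the text of the series gives 6 or 7 days of growth before treatment. The mock group received 0.1% DMSO and the treated group 1 µM IAA dissolved in DMSO. Both groups had stood in the same liquid medium, 10 seedlings to a tube, for 24 h of shaking before treatment. Each tube pooled its seedlings, and the whole experiment was repeated 3 times on different days. The other 6 arrays hold mock and IAA seedlings taken, per their titles, at 15 min. The treatment protocol in the labels names 30 min, 1 h and 3 h, whereas the titles and the text of the series give 15 min and 3 h. The 3 h time thus stands in all of them, and the titles were used.

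Auxin acts on transcription through repressors of the Aux/IAA family. The hormone brings an F-box receptor (TIR1 or an AFB protein) and an Aux/IAA protein together, the repressor is degraded, and ARF transcription factors are freed to act on their targets. Among the known targets are genes that damp the signal again, namely the Aux/IAA genes themselves and the GH3 genes, whose enzymes join auxin to amino acids, and in roots the LBD genes that start lateral roots.

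RNA from whole seedlings was hybridised to Affymetrix Gene 1.1 ST arrays, and levels on a log2 scale were available for 28583 probe sets, a probe set being the group of probes that reports 1 transcript. The platform pairs 16746 of them with exactly 1 gene, 758 with several and 11079 with none. Many genes known by a locus number alone carry no function in the tables used, and they are given here by that number. The seedlings' makeup could be checked with few markers: RCA, the activase of the leaf enzyme Rubisco, lay between 10.51 and 10.66 on the 6 arrays, and PYK10, an abundant root glucosidase, between 10.93 and 11.49. None of the 4 measured leaf markers and not the 1 measured root marker passed the test, which 0.675% of all probe sets passed. The leaf markers PSBY, LHCB4.1, PRK and RCA had log2 changes of -0.38, -0.23, -0.13 and -0.01 with all arrays and of -0.06, 0.01, -0.20 and -0.05 without the arrays numbered 1, and PYK10 had -0.19 and -0.01. In whole seedlings a change in a transcript's level per cell and a change in the number of cells that hold it cannot be told apart.

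The arrays numbered 1 stood apart, the IAA array at 3 h most of all by its range. The interquartile range of the log2 levels was 2.88 on the IAA array numbered 1, 3.79 on the mock array numbered 1 and 3.89 to 3.9 on the other 4 arrays at 3 h. At 15 min, in the same fit, it was 3.53 on the mock array and 3.46 on the IAA array numbered 1 and 3.89 to 3.92 on the other 4. When limma estimated a weight for each array, the 2 lowest were those of the mock (0.0888) and IAA (0.107) arrays numbered 1 at 3 h. Of all probe sets, 42.1% had their highest and 33.4% their lowest value of the 6 arrays on the IAA array numbered 1. In pair 1 the median IAA minus mock difference was 0.60 over the 7146 probe sets with the lowest mock levels and -0.40 over the 7146 with the highest, whereas in pairs 2 and 3 it lay between -0.01 and 0.02 over the same sets. The counts of calls are therefore given with and without the 4 arrays numbered 1, as are the named genes for which leaving them out changed the call and some others. The part these arrays play in a call was not tested otherwise.

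IAA for 3 h left 96 probe sets higher (0.336% of those tested) and 97 lower (0.339%), 193 in all (0.675%), at an adjusted p under 0.05. Probe sets with 1 gene made up 97 of the 193 (0.579% of that kind) and probe sets with no gene 91 (0.821%), a difference in share that was not tested. Genes of auxin's own feedback led the named rises: GH3.3, GH3.1, IAA29 and the lateral root factor gene LBD29 rose between 6.62-fold and 12.4-fold. The falls were smaller, with 6.84-fold at AT3G01190 as the largest. The median rise was 2.30-fold and the median fall 2.18-fold, and 71 rises and 63 falls were at least 2-fold. Changes were tested with limma over the 12 arrays with the replicate number as a block and p-values adjusted over all probe sets (Benjamini-Hochberg).

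All 193 had the same sign in the 3 numbered pairs, where 16.5% of all probe sets were higher and 13.8% lower in all 3 pairs. The 3 IAA arrays lay wholly above the 3 mock arrays for 93 of the 96 rises (6.33% of all probe sets) and wholly below for all 97 falls (5.17%). Without the replicate block 61 rises and 32 falls were called (0.213% and 0.112%), every one of them also called with it. Without the 4 arrays numbered 1 there were 293 rises and 290 falls (1.03% and 1.01%), which included 92 of the 96 and 90 of the 97. Only 35 of the 96 rises and 20 of the 97 falls were called in every fit that left out 1 array at 3 h. The 6 arrays at 3 h alone, with the block, gave 0 calls (lowest adjusted p 0.143, 1011 probe sets at an unadjusted p under 0.05; limma), and without the block 13 rises and 3 falls. The spread between pairs was larger at 3 h than at 15 min, with a median SD of the pair differences of 0.327 against 0.160, so the error pooled over both times can be too small for 3 h.

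**Figure D1:**
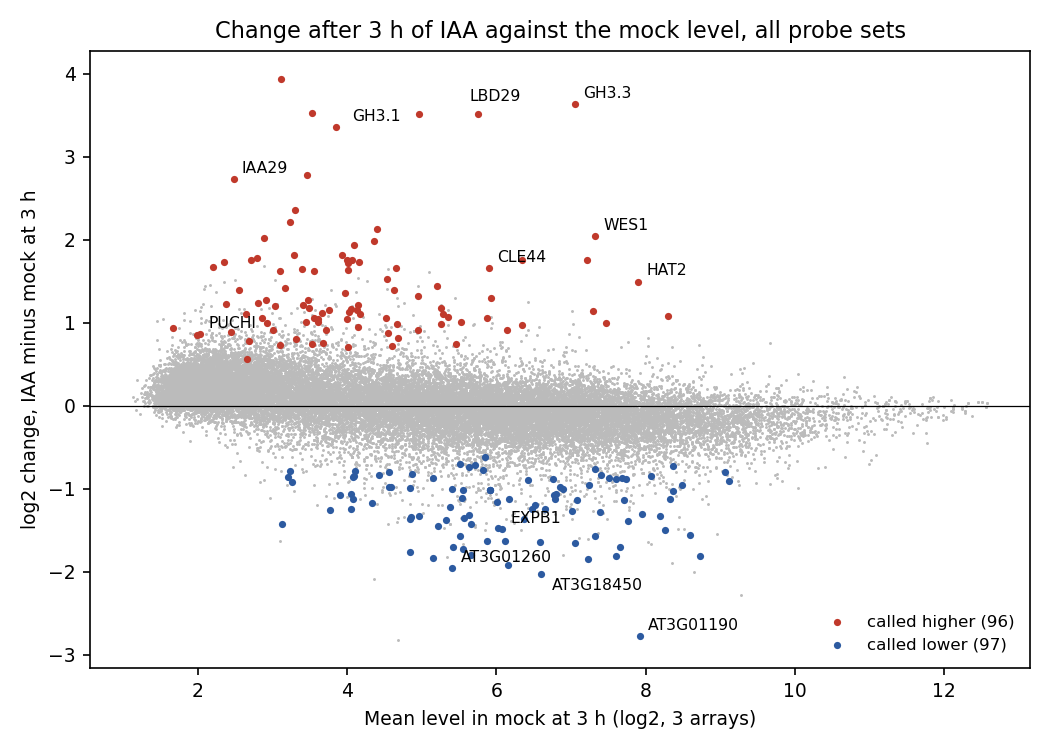
Log2 change (IAA minus mock at 3 h, vertical axis) against the mean log2 level in the 3 mock arrays (horizontal axis) for 28583 probe sets. Grey points were not called, red points are the 96 called higher and blue points the 97 called lower, and GH3.3, LBD29 and GH3.1 stand at changes above 3.5.

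Genes for enzymes that join auxin to amino acids were among the largest named rises. GH3.3 read 6.98, 6.80 and 7.37 on the mock arrays 1 to 3 and 10.29, 10.85 and 10.93 on the IAA arrays. GH3.1 read 4.86, 4.87 and 5.17 in mock and 8.16, 8.51 and 8.77 after IAA. WES1, a further GH3 gene, read 7.55, 7.08 and 7.35 in mock and 8.90, 9.61 and 9.61 after IAA. For all 3 genes every IAA array lay above every mock array, and the IAA array numbered 1 was the lowest of its group. The log2 changes were 3.64 for GH3.3 (SE 0.22, 12.4-fold, adjusted p 0.000134), 3.51 for GH3.1 (SE 0.13, 11.4-fold, adjusted p 3.72e-06) and 2.04 for WES1 (SE 0.21, 4.12-fold, adjusted p 0.00321). Of 6 measured GH3 genes, 3 rose and 0 fell, beside 0.336% and 0.339% of all probe sets. Their median log2 change was 1.14 against 0.04 over all probe sets. The 3 that did not pass were GH3.17 (0.23, SE 0.23), GH3.4 (0.22, SE 0.12) and GH3.9 (0.03, SE 0.14).

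IAA29, an Aux/IAA repressor gene, rose 6.62-fold. It read 2.56, 2.50 and 2.38 in mock, below the 25th percentile of the mock arrays (2.73), and 4.71, 5.24 and 5.67 after IAA, so that the groups were far apart (log2 change 2.73, SE 0.24, adjusted p 0.00125). Levels this close to background are compressed by the summary method, and the fold change can be understated. IAA29 was the only one of 8 measured Aux/IAA genes to pass, beside 0.675% of all probe sets in either direction. The other 7, among them IAA18, IAA20, IAA30 and IAA31, had log2 changes between -0.13 and 0.35, and of the 32 Aux/IAA loci looked for the remaining ones are not analysed here. For IAA18 the pairs did not share a sign, at -1.23, 0.56 and 0.29. Its log2 change was -0.13 with all arrays and 0.42 (adjusted p 0.237) without those numbered 1. On the arrays numbered 1 it read 5.96 in mock and 4.73 after IAA at 3 h, and 4.85 and 4.42 at 15 min. The part of any 1 array was not tested.

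In the list of lateral root initiation factors 2 of 4 measured members rose (beside 0.336% of all probe sets). LBD29, which encodes a LOB-domain transcription factor that acts below ARF proteins in lateral root founder cells, read 5.67, 5.42 and 6.19 in mock and 8.45, 9.72 and 9.65 after IAA. The groups did not overlap, and the change was 11.4-fold (log2 3.52, SE 0.30, adjusted p 0.000898). PUCHI, an AP2/ERF factor gene that shapes the division pattern of the young primordium, read 2.13, 1.99 and 1.97 in mock and 2.84, 2.81 and 3.03 after IAA. Its rise was 1.82-fold at low levels (log2 0.86, SE 0.13, adjusted p 0.0184; 0.2 after quantile normalisation). PUCHI's groups did not overlap either. LBD16, singled out after its values were seen, read 5.02, 4.47 and 4.8 in mock and 5.47, 6.15 and 6.40 after IAA. It missed the threshold with all arrays (log2 change 1.24, SE 0.24, adjusted p 0.0558) and passed without those numbered 1 (1.64, adjusted p 0.00093). BBM, also on the list, did not pass, with a change of 0.35 (SE 0.23).

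HAT2, a class II homeodomain-leucine zipper factor gene, read 7.94, 7.88 and 7.86 in mock and 8.64, 9.64 and 9.89 after IAA. The mock arrays were nearly equal and the IAA array numbered 1 rose least. The change was 2.82-fold (log2 1.5, SE 0.22, adjusted p 0.0166), it was not called without the replicate block (0.114), and it was 1.89 without the arrays numbered 1 (adjusted p 0.000325). The small auxin-up RNA gene AT2G18010 (SAUR10) read 2.46, 2.13 and 2.55 in mock and 4.17, 3.61 and 3.03 after IAA. Here the IAA array numbered 1 was the highest, and the call (log2 change 1.23, SE 0.22, adjusted p 0.0425) was lost without the block (0.15) and without the arrays numbered 1 (0.12). The other 4 measured SAUR genes had changes between -0.07 and 0.27 and did not pass. So 1 of 5 passed, beside 0.675% of all probe sets in either direction.

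Peptide hormone genes were represented by CLE44 and IDL4. CLE44 encodes a CLE peptide that keeps vascular stem cells from becoming xylem, and it read 5.47, 5.90 and 6.32 in mock and 7.18, 7.68 and 7.82 after IAA. It kept its distance in every pair (log2 change 1.66, SE 0.20, adjusted p 0.00572). IDL4, of the family related to the abscission peptide IDA, read 3.76, 4.20 and 4.04 in mock and 6.01, 5.66 and 5.61 after IAA (3.38-fold, log2 1.76, SE 0.28, adjusted p 0.0227; 0.0775 without the block). Of 43 measured genes for secreted peptides these 2 rose and 0 fell, beside 0.336% and 0.339% of all probe sets. The count of rises was 1 without the block and 3 without the arrays numbered 1. The neighbouring gene of CLE44, AT4G13190, also rose (log2 change 1.06, SE 0.19, adjusted p 0.0391), with 0 protein-coding genes between them. Its call was lost without the block (adjusted p 0.0671) and after quantile normalisation (0.0797), and was kept in 1 of the 6 fits that left out 1 array.

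The other 7 of the 14 largest rises among named genes have no function in the tables used. AT1G30760 read 4.54, 4.30 and 4.25 in mock and 6.33, 6.25 and 6.45 after IAA, a 3.95-fold rise with little spread (log2 1.98, SE 0.19, adjusted p 0.00182). AT3G60650, AT5G65320, AT5G62280, AT5G67430, AT2G23060 and AT1G62770 rose by log2 1.63 to 1.94. AT5G67430 read 5.38, 6.87 and 6.79 in mock and 7.41, 8.61 and 8.29 after IAA, lowest on the array numbered 1 in both groups, and its adjusted p was 0.00574 with the block and 0.182 without. All 14 were also called without the arrays numbered 1 and after quantile normalisation, and 12 of the 14 without the block, the exceptions being IDL4 and AT5G67430. Fewer held when 1 array at 3 h was left out. AT5G65320, AT5G62280, IDL4 and AT2G23060 were called in 2 of these 6 fits and AT1G62770 in 4, and the rest of the 14 in all 6.

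**Figure D2:**
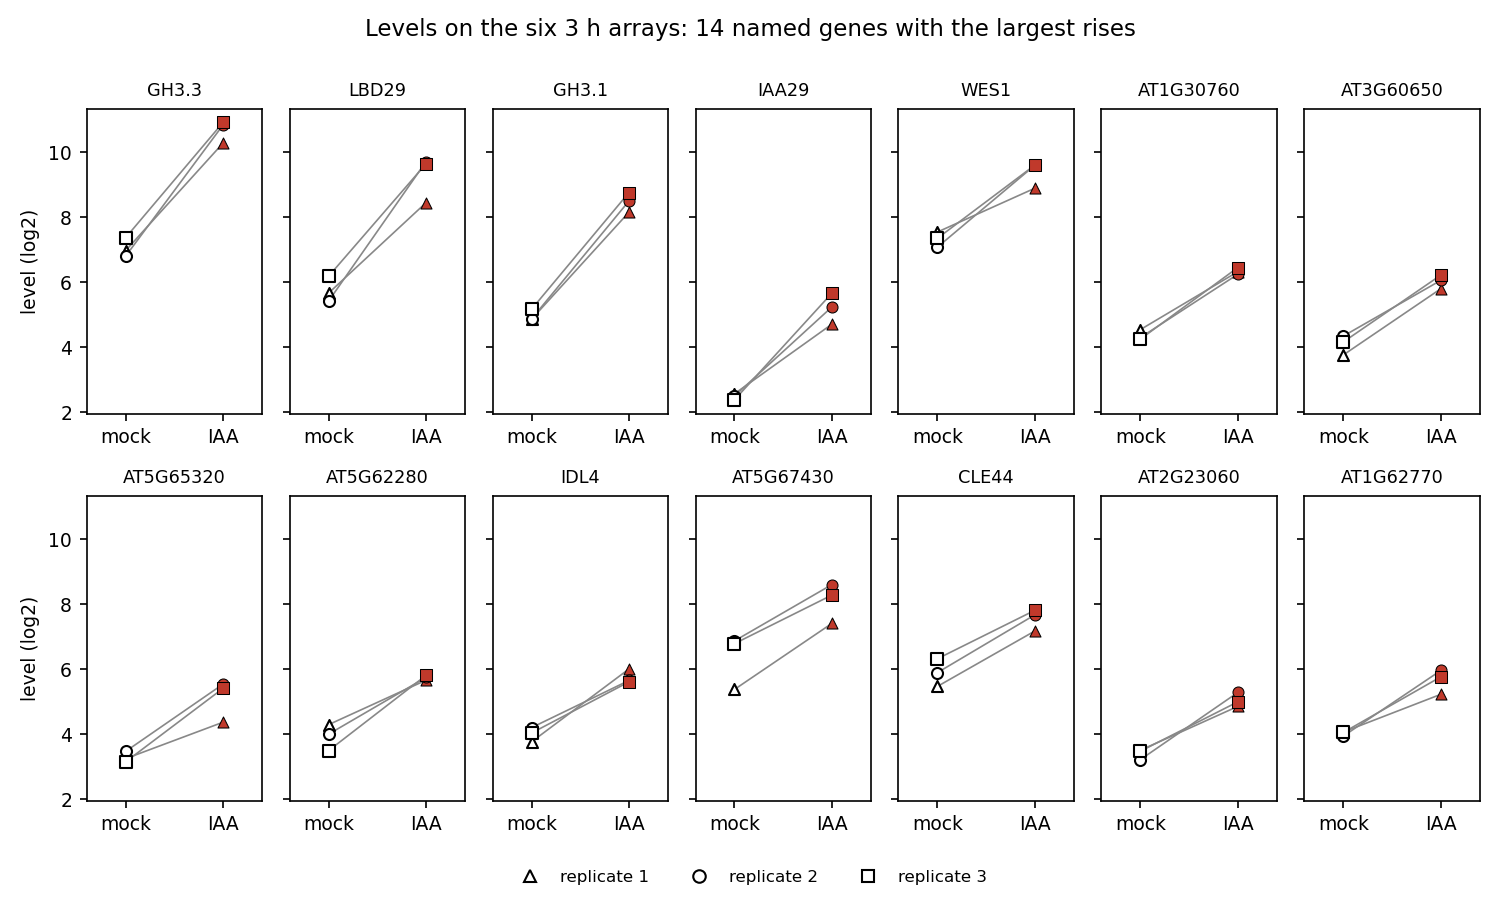
Log2 level (vertical axis) on the 3 mock arrays (open symbols) and the 3 IAA arrays (red) at 3 h for the 14 named genes with the largest rises, with lines joining arrays of the same number. All 14 rise in each of the 3 pairs. The IAA array of replicate 1 (triangle) is the lowest IAA array for GH3.3, LBD29, GH3.1, IAA29 and WES1, and also for CLE44 and AT5G67430. It is not the lowest for AT1G30760 or IDL4.

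Among the named falls with a known role were an expansin gene, a xyloglucan enzyme gene and an auxin synthesis gene. EXPB1, a beta-expansin, belongs to the proteins that loosen cell walls, and it read 6.13, 6.16 and 5.95 in mock and 5.19, 4.37 and 4.23 after IAA. The fall was 2.80-fold (log2 change -1.49, SE 0.18, adjusted p 0.00572), and every IAA array lay below every mock array. It was the only one of 22 measured expansins to pass with all arrays, beside 0.675% of all probe sets in either direction. XTH21, for an enzyme that cuts and rejoins xyloglucan chains, read 4.29, 4.18 and 3.76 in mock and 3.51, 2.86 and 2.48 after IAA. The fall of 2.18-fold (log2 change -1.13, SE 0.14) had an adjusted p of 0.00742. XTH21 was the only one of 10 measured genes of its family to pass, beside the same 0.675%. Without the arrays numbered 1 its change was -1.3 (adjusted p 0.00112). Without the block its adjusted p was 0.293 and both groups were highest on array 1 and lowest on array 3.

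YUC6, whose flavin monooxygenase makes IAA from indole-3-pyruvate, read 4.44, 4.64 and 4.61 in mock and 3.28, 3.83 and 3.64 after IAA. It fell 1.96-fold (log2 change -0.97, SE 0.13, adjusted p 0.0108; -0.88 and 0.02 without the arrays numbered 1). The 3 other measured genes of auxin synthesis, YUC2, YUC4 and YUC11, did not pass, with changes of 0.20 to 0.29. So 1 of 4 passed, beside 0.675% of all probe sets in either direction. Without the arrays numbered 1 these 3 changes were 0.03, -0.07 and -0.08.

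The largest fall was that of AT3G01190, which read 8.30, 7.93 and 7.53 in mock and 5.0, 5.38 and 5.06 after IAA. The groups were more than 2 log2 units apart, and the log2 change of -2.77 (SE 0.19) had an adjusted p of 0.000253. AT3G01260 was the most even, at 5.48, 5.42 and 5.34 in mock and 3.36, 3.46 and 3.53 after IAA (a fall of 3.89-fold, log2 change -1.96, SE 0.12, adjusted p 0.000134). AT3G18450 read 7.14, 6.85 and 5.81 in mock and 5.02, 4.81 and 3.89 after IAA. Pair 3 lay about 1 log2 unit below the others in both groups, and the fall of 2.02 on the log2 scale (SE 0.23) had an adjusted p of 0.00457 with the block and 0.103 without.

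The remaining 10 of the 14 largest named falls lay between -1.56 and -1.92 and have no function in the tables used. AT4G19730 spread most, from 5.38 to 7.29 in mock and 3.85 to 4.71 after IAA, and its adjusted p was 0.0139 with the block and 0.676 without. AT2G30660 read 4.93 on the IAA array numbered 1 against 6.51 and 6.43 on the other 2, and its change was -1.70 with all arrays and -1.22 without those numbered 1 (adjusted p 0.0192 and 0.00124). All 14 falls were called without the arrays numbered 1 and after quantile normalisation. In the 6 fits that left out 1 array at 3 h, AT4G00910 was called in 1 and AT1G49030 in 2. AT4G19730, AT2G30660 and AT3G27950 were called in 3 of them, AT2G47540 in 4 and AT4G11190 in 5, and the rest of the 14 in all 6. Without the block 8 of the 14 were called, and the 6 that were lost are AT3G18450, AT4G19730, AT4G00910, AT2G30660, AT1G49030 and AT4G11190.

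**Figure D3:**
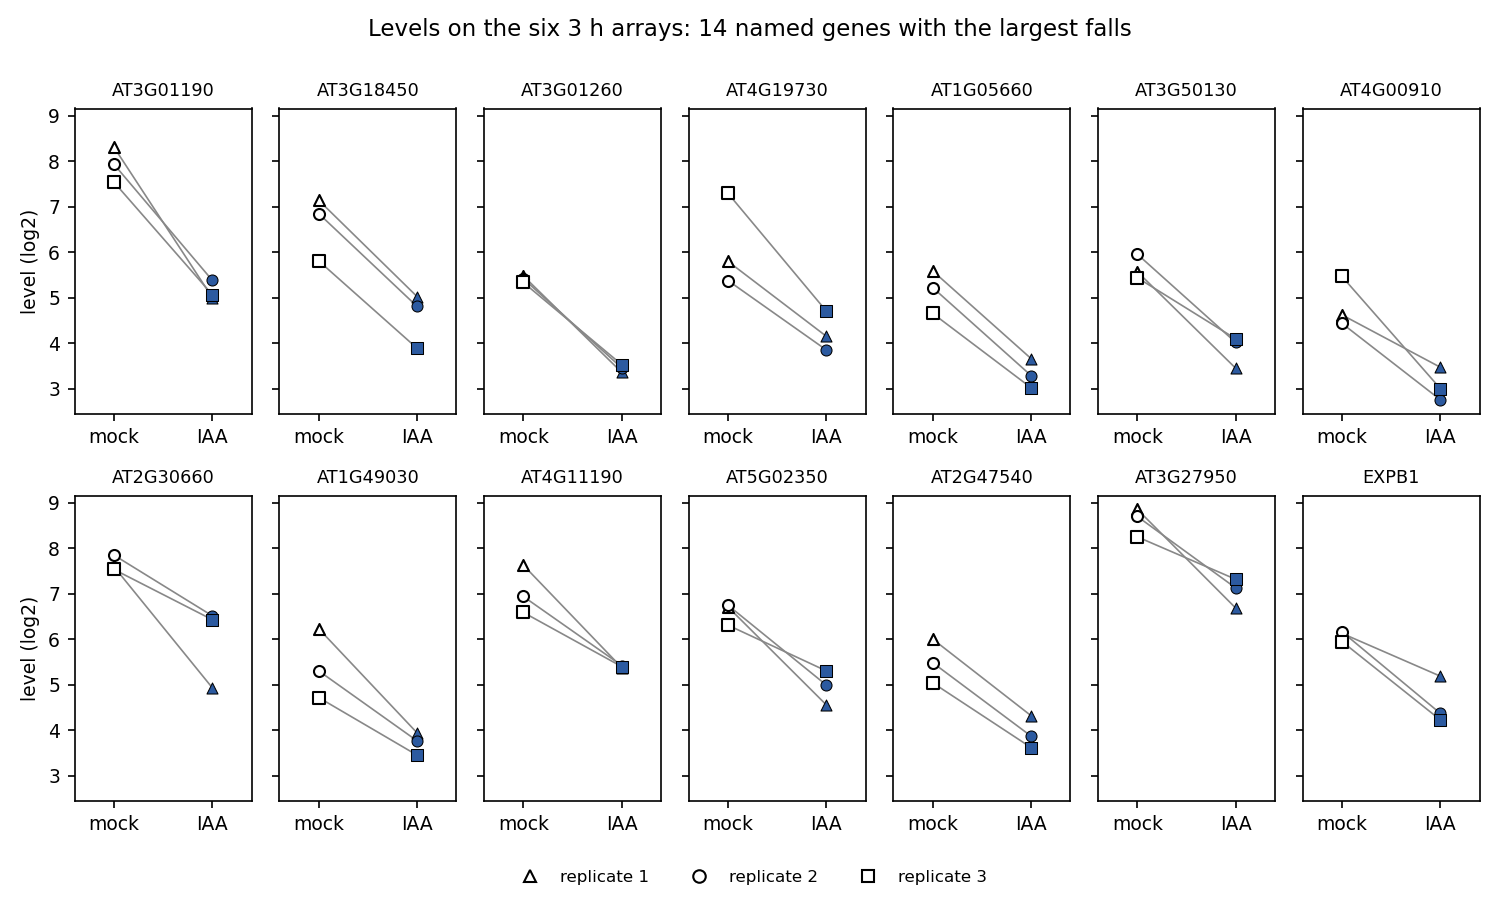
Log2 level (vertical axis) on the 3 mock arrays (open symbols) and the 3 IAA arrays (blue) at 3 h for the 14 named genes with the largest falls, with lines joining arrays of the same number. All 14 fall in each of the 3 pairs; AT3G01260 shows the least spread, and AT4G19730 and AT3G18450 show pairs that are offset from one another in both groups.

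Other hormone genes did not pass. ARR15, a type-A response regulator that damps cytokinin signalling, read 3.78, 3.83 and 3.55 in mock and 2.99, 2.38 and 2.54 after IAA. The groups at 3 h did not overlap, yet the error pooled over the 12 arrays was wide (log2 change -1.09, SE 0.48, adjusted p 0.442; -1.23 and 0.134 without the arrays numbered 1). EIN3, an ethylene transcription factor gene, had a change of -0.17 (SE 0.15), the auxin glucosyltransferase gene UGT84B1 one of 0.20 (SE 0.18) and the kinase gene PID2 one of 0.23 (SE 0.13). The signs for EIN3 and UGT84B1 turned without the arrays numbered 1. Among the 4 root hair genes measured 0 passed, beside 0.675% of all probe sets in either direction. The one with the smallest p was EXPA18 (-0.34, SE 0.18). Of 7 peroxidase genes found by symbol 0 passed, beside the same 0.675%. Prx37 had the smallest p among them, at -0.66 (adjusted p 0.126), and at -0.55 (adjusted p 0.107) without the arrays numbered 1. Loci known by number alone could not be sorted into this family with the tables used, so the count does not speak for the family as a whole. The touch and stress gene STZ read 7.74, 6.32 and 8.01 in mock and 6.05, 7.75 and 7.65 after IAA, with overlapping groups. EXO, the other measured gene of the touch and wounding list, had a change of -0.14 (SE 0.39) with all arrays and was called higher without those numbered 1 (0.63, adjusted p 0.0294), where the list's median went from -0.17 to 0.58. Auxin receptors, ARF factors, gibberellin and brassinosteroid enzymes, Casparian strip genes and mitotic genes had no probe set paired with them by name and are not analysed here.

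Among the expansins, the IAA array numbered 1 was the highest of the 6 arrays at 3 h for 13 of the 22 measured. This is 59.1%, against 42.1% of all probe sets, a difference that was not tested. EXPA25 read 7.70 on it and between 4.19 and 4.77 on the other 5 arrays. EXPA23 read 5.27 on it against at most 2.89 on the other 5, and EXPA24 and EXPA22 were likewise highest there, at 5.54 and 4.28. At 15 min the mock and IAA arrays numbered 1 read 5.28 and 5.67 for EXPA25, against at most 4.44 on the other 4. For EXPA23 they read 3.23 and 3.66, against at most 3.06. These 4 genes, chosen after their values were seen, had log2 changes of 0.59 to 1.11 with all arrays and of -0.19 to 0.09 without the arrays numbered 1, and none passed in either case. Probe sets of near-identical family members can share transcripts, so the 4 need not be independent measurements. The median change of the family fell from 0.28 to 0.07 without those arrays, and EXPA8 (1.10, adjusted p 0.0476) was then called higher and EXPA15 (-0.57, adjusted p 0.017) lower beside EXPB1 (-1.76, adjusted p 0.000446).

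The 3 pairs can also be read separately among the calls. For the 96 rises the median differences in pairs 1, 2 and 3 were 1.14, 1.34 and 1.34, and for the 97 falls they were -1.29, -1.14 and -0.98. Pair 1 gave the smallest rise for 49 of the 96 and the largest for 34. It gave the largest fall for 57 of the 97 and the smallest for 25. The called rises came from lower mock levels (median 3.99) than the falls (6.01), beside 4.77 over all probe sets. Of the 96 rises 13, and of the 97 falls 0, started below the 25th percentile of the mock arrays, beside 24.9% of all probe sets. In pair 1 the median difference was 0.60 over the probe sets with the lowest mock levels and -0.40 over those with the highest. The further calls made without the arrays numbered 1 had median mock levels of 5.04 (higher) and 4.97 (lower). A link between level and direction was not tested.

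**Figure D4:**
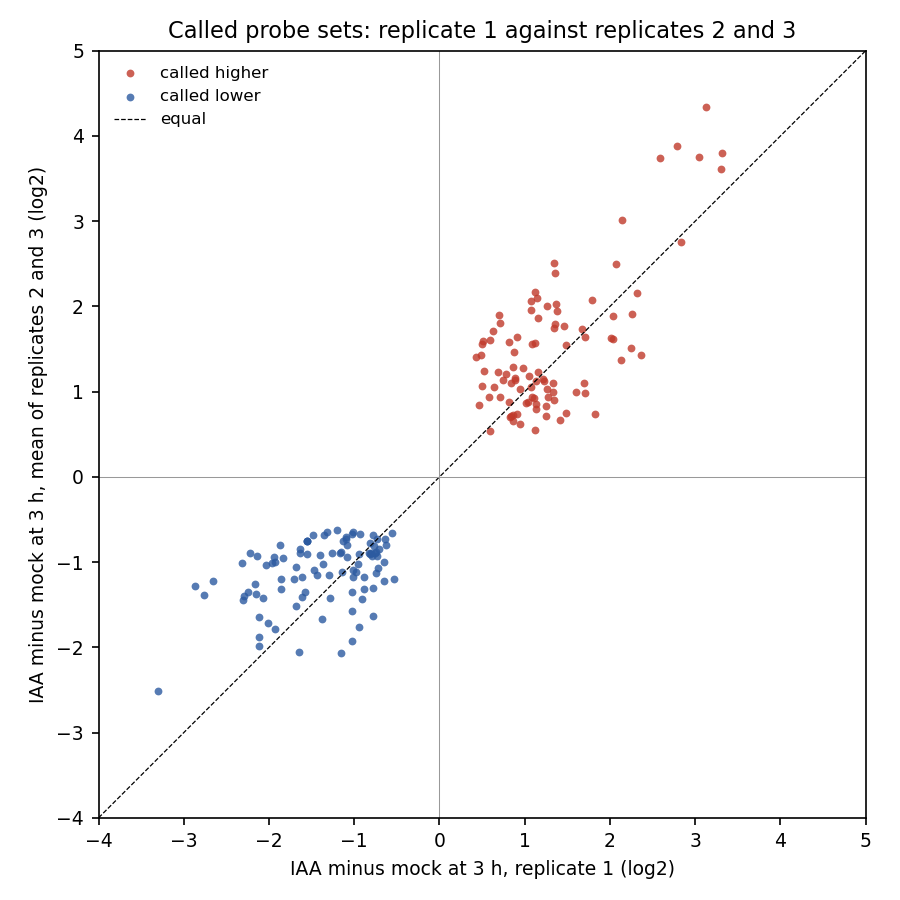
IAA minus mock difference in log2 level at 3 h in replicate 1 (horizontal axis) against the mean difference of replicates 2 and 3 (vertical axis) for the 193 called probe sets, red for the 96 higher and blue for the 97 lower, with a dashed line of equality. All points lie in the quadrants where both differences have the same sign.

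The earlier time was used to ask which of these changes were already present at 15 min. There 22 probe sets were higher (0.077%) and 0 lower, with 396 at an unadjusted p under 0.05 (limma). The count of calls at 15 min was 12 without the block and 49 without the arrays numbered 1, and the overlap that follows was counted only in the fit with the block and all arrays. Of the 22, 13 were also higher at 3 h, which is 59.1% of the 22 and 13.5% of the 96. GH3.1, GH3.3, LBD29 and HAT2 were among them, as were AT5G41400 and AT3G50340. HAT2 had changed by 1.99 at 15 min and 1.5 at 3 h, and the difference of -0.50 (SE 0.31, adjusted p 0.856) was not beyond the error. LBD16 was called at 15 min (1.70, adjusted p 0.0451) and missed the threshold at 3 h (1.24, adjusted p 0.0558). Its difference of -0.46 (SE 0.33, adjusted p 0.856) was not beyond the error either. The 96 rises had a median log2 change of 0.22 at 15 min with 73 positive, and the 97 falls one of -0.08 with 72 negative. Over all probe sets the median at 15 min was -0.002. None of the 97 falls was called at 15 min, and these signs were not tested.

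The change at 3 h differed from that at 15 min for 6 probe sets (0.021%), 3 in each direction (0.0105% each) and 3 of them with a gene name. GH3.1 went from 1.67 to 3.51, and the gap of 1.84 (SE 0.18) had an adjusted p of 0.0115 with the block and 0.151 without. AT3G01190 went from 0.09 to -2.77 (difference -2.86, SE 0.27, adjusted p 0.0095), and AT3G01260 from 0.11 to -1.96 (difference -2.07, SE 0.17, adjusted p 0.00354). Neither was called at 15 min, and both had fallen at 3 h. For GH3.3 (2.01, SE 0.31, adjusted p 0.111), LBD29 (0.83, SE 0.43, adjusted p 0.856) and IAA29 (1.73, SE 0.34, adjusted p 0.236) no difference between the times was called with all arrays. Without the arrays numbered 1 the count of differences was 83, with GH3.3 (adjusted p 0.0347), IAA29 (0.0379) and WES1 (0.0074) among them.

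**Figure D5:**
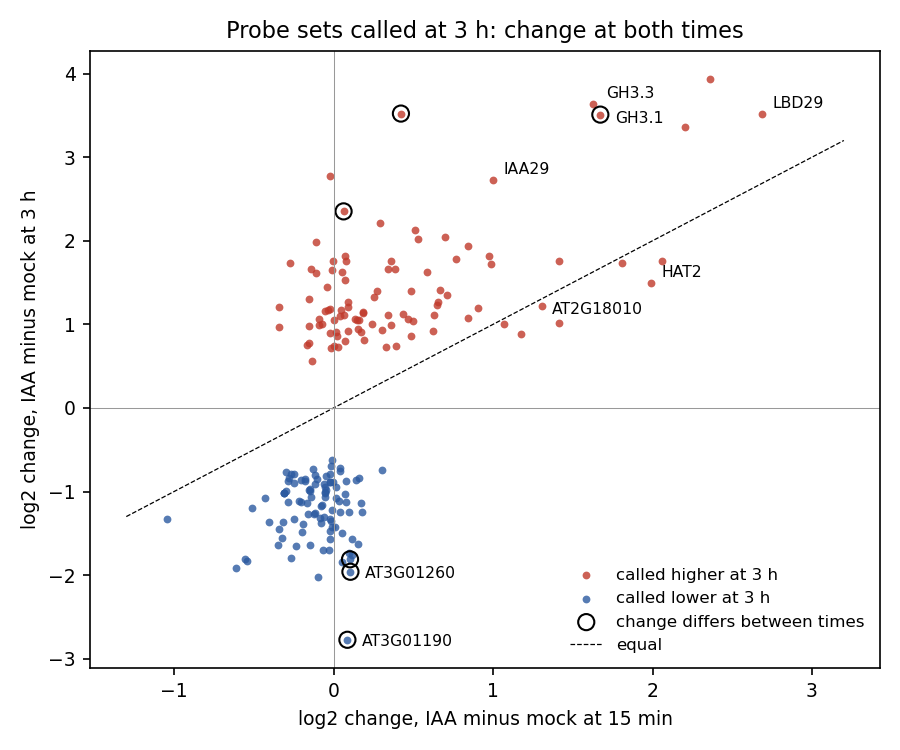
Log2 change at 3 h (vertical axis) against that at 15 min (horizontal axis), both IAA minus mock, for the 193 probe sets called at 3 h, red for higher and blue for lower. Rings mark the 6 whose change differs between the times, and the dashed line marks equal changes; most points lie near 0 at 15 min.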

How the data were processed

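The deposited values are log2 levels. Per the submitters' processing notes, the authors used oligo and RMA (versions not given). This method removes background, normally brings the arrays to a common distribution, and summarises the probes of each probe set. The deposited values still differ in range between arrays. At 3 h the interquartile range was 2.88 on the IAA array numbered 1 and 3.90 on the mock array numbered 2. Whether all arrays were normalised together was not tested. No coordinates or sequences are printed, the genome build being not given in the sources used here.

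Groups came from the sample titles. Of 16746 probe sets with 1 gene, 16601 were named through a RefSeq table (TAIR10.1) by gene number, 96 by locus tag, and 49 kept the platform's symbol. Of all probe sets, 562 hold values identical to another's.

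Differences were tested with limma 3.58.1 (R 4.3.3; lmFit, contrasts.fit, eBayes) on the deposited log2 values of 12 arrays in 4 groups, blocked by replicate number (6 residual and 3.83 prior degrees of freedom), and Benjamini-Hochberg adjustment over 28583 probe sets. The code was tested on simulated data. The series text names 3 days without numbering them. The deviations of same-numbered arrays from their group means correlated at 0.150, 0.133 and 0.201 at 3 h, each over 0.1, and with a line on the mean level taken out at 0.104, 0.0984 and 0.188. At 15 min they correlated at 0.805, 0.676 and 0.659. The p-values measure change against the spread between repeats pooled over all 4 groups, so the spread at 15 min enters those at 3 h. The prior also draws that spread towards the value typical of all probe sets.

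Genes named are, in each direction, the 14 with the largest change among called probe sets with 1 gene and 3 pairs of 1 sign, called differences between the times, and per list up to 3 called members, or the member with the smallest p. The comparison, lists and rule were chosen with earlier results of these data known. A planned search of promoters for auxin response elements was not run. Alternatives changed the block, the arrays, the normalisation, the weights, the trend and the filter. The number of arrays limits the precision.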

Additional observations from a re-analysis of the deposited data

Results flagged for a closer look

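A difference between the responses at 3 h and 15 min was found for 6 probe sets. GH3.1 had a difference of 1.84, AT3G01190 one of -2.86 and AT3G01260 one of -2.07 on the log2 scale. GH3.1 read 4.82, 4.92 and 5.2 in mock and 6.27, 6.82 and 6.87 after IAA at 15 min, so that it had already risen there. AT3G01190 read 7.22, 7.78 and 7.28 in mock and 7.30, 7.89 and 7.35 after IAA at 15 min, and its mock arrays at 3 h lay between 7.53 and 8.30.

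The 3 others have no gene paired with them. Probe set 13456003 had a difference of 3.1 (SE 0.24, limma adjusted p 0.00354), having read 3.28, 3.6 and 3.7 in mock and 6.33, 7.34 and 7.47 after IAA at 3 h. Probe set 13405370 had a difference of 2.29 (SE 0.24, adjusted p 0.0156), with 3.26 to 3.38 in mock and 5.32 to 5.92 after IAA at 3 h. Probe set 13463093 had a difference of -1.91 (SE 0.21, adjusted p 0.0163), with 8.55 to 8.94 in mock and 6.91 to 6.93 after IAA at 3 h. All 6 differences were called without the arrays numbered 1, and 5 of them without the block, the exception being GH3.1.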

How the results depend on the processing

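The counts of rises and falls were 61 and 32 with no replicate block, 0 and 0 on the 6 arrays at 3 h with the block, 13 and 3 on those arrays without it (added after the data were seen), 293 and 290 without the 4 arrays numbered 1, 546 and 569 with array weights, 45 and 45 on named probe sets only, and, leaving out 1 array at 3 h at a time, 38 to 113 and 30 to 87. The lowest counts of rises came without the IAA array numbered 3 (38) or the mock array numbered 2 (39). The count of differences between the times was 5 with no replicate block, 83 without the arrays numbered 1, 13 after quantile normalisation, 338 with array weights, 3 on named probe sets only, and 3 to 33 leaving out 1 array. Quantile normalisation (95 and 92), the intensity trend (84 and 89), the filter on dim probe sets (95 and 98) and distinct values only (96 and 96) left the counts of rises and falls within 1.5 times; the cause of the larger moves was not tested. In the main setting, with no block, without the arrays numbered 1 and after quantile normalisation alike, 58 rises and 31 falls were called. Of 42 named genes, 31 kept their side of the threshold with no replicate block and 11 lost their call. HAT2, PUCHI and AT2G18010 were called in 2 of the 6 fits that left out 1 array at 3 h, and XTH21 and YUC6 in 3.

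4 changes that passed in none of these settings turned sign. UGT84B1 was at -0.0875 without the arrays numbered 1 and -0.0853 with array weights, EIN3 at 0.0896 and 0.0904, and STZ at 0.537 and 0.405. Leaving out 1 array at a time, UGT84B1 ran from -0.0454 to 0.367, EIN3 from -0.287 to 0.00552, STZ from -0.848 to 0.382 and PSBY from -0.585 to 0.0128. Leaving out 1 array leaves its pair incomplete, and its group then rests on 2 arrays. Levels near background limit what low probe sets can show.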

Other observations

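Without the arrays numbered 1, 201 further probe sets were higher and 200 lower, and the genes named from them here were chosen after their values were seen. LBD16 was joined by RTFL13, of a family of small growth-restraining peptides, which read 1.83 and 1.84 in mock and 2.81 and 3.64 after IAA on arrays 2 and 3 (log2 change 1.39, limma adjusted p 0.0157). AT4G37295 read 4.60 and 4.75 in mock and 7.00 and 6.80 after IAA, while its arrays numbered 1 read 5.51 in mock and 5.41 after IAA. The autophagy gene ATG8G (1.09, adjusted p 0.0051) was also higher. MSRB4, MSRB9 and MSRB5, for methionine sulfoxide reductases, which repair oxidised methionine, were lower by log2 changes of -0.99, -0.54 and -0.43. No count over this family is given here, and members of 1 family need not be independent measurements. The sucrose exporter gene SWEET13 (-0.69, adjusted p 0.00695) and sks16 (-0.66, adjusted p 0.0197) were lower too, and sks15 of the same multicopper oxidase-like family was lower with all arrays (-1.27, adjusted p 0.0366), a call lost without the block (0.18) and kept in 2 of the 6 fits that left out 1 array. In pair 1, 115 of the 201 and 149 of the 200 had the direction of the call. No share over all probe sets is given beside these counts. The median difference in pair 1 itself ran from 0.60 at the lowest mock levels to -0.40 at the highest.

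Among calls with all arrays, tny, an AP2/ERF factor gene, read 6.03, 5.42 and 5.53 in mock and 4.17, 4.12 and 4.43 after IAA (log2 change -1.42, SE 0.17, adjusted p 0.00574). The subtilase gene SBT4.12 read 9.31, 9.06 and 8.98 in mock and 7.95, 8.39 and 8.29 after IAA (-0.91, SE 0.16, adjusted p 0.0366; 0.0695 without the block). The probe set with the largest rise of all has no gene paired with it (3.94, 15.3-fold).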
